A study of Mus musculus with 12 samples.

Results

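The 10 genes described here encode chaperones, co-chaperones and degradation factors of the endoplasmic reticulum (ER), together with Xbp1, a transcription factor that controls many of them. They are Hspa5, Hsp90b1, Calr, Pdia4, Dnajb9, Sdf2l1, Creld2, Herpud1, Edem1 and Xbp1. They were taken by gene symbol, each matched 1 Ensembl identifier of the count table, and they make 10 of its 27022 genes. The livers of 6 female SJL/J mice were sampled at 11 weeks of age. All mice arrived at 3 weeks of age and were first given the AIN-93G control diet with 50 ppm iron, and the 3 iron-loaded mice were changed at 6 weeks to AIN-93G with 2% carbonyl iron. Each diet was given to 1 cage of 4 mice, of which 3 were sequenced, and diet therefore cannot be told apart from cage. From the RNA of each mouse, 1 library was made with a stranded whole-transcript kit from KAPA (Trad-KAPA), which sequences fragments along the transcript, and 1 with the Lexogen QuantSeq kit (3'-LEXO), which reads only near the 3' end. There were thus 4 groups of 3 libraries, the 3 libraries of a group came from 3 different mice, and the same 6 mice were in both kits.

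Secreted and membrane proteins are folded in the ER, and hepatocytes, which secrete most plasma proteins, have a large ER. When unfolded proteins accumulate, the sensors IRE1, PERK and ATF6 start the unfolded protein response. IRE1 splices the Xbp1 transcript to yield an active factor, PERK phosphorylates the initiation factor eIF2 alpha and so favours translation of ATF4, and ATF6 is cut in the Golgi to release its transcription factor domain. The targets of these branches include ER chaperones and the machinery of ER-associated degradation (ERAD), which passes misfolded proteins to the proteasome. Counts per gene cannot tell spliced from unspliced Xbp1.

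The factors ATF6 and XBP1 are known to act through the ER stress response element (ERSE), and the promoters were searched for it in both strands. The RefSeq promoters of GRCm38.p6 were used, which cover 250 bases before to 50 bases after the gene start, and all 10 genes matched. ERSE, written as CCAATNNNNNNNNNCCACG, was found in 0.119% of 32851 promoters and in 4 of the 10, those of Hspa5, Hsp90b1, Calr and Creld2. ERSE-II, ATTGGNCCACG, was found in 0.0365% of promoters and in that of Herpud1. The XBP1 core TGACGTGG was found in 0.676% of promoters and in 0 of the 10, and the short site CCACG, which is also the end of both longer motifs, in 32.8% of promoters and in 9 of the 10, all but Xbp1. The 250 bases before the start are shown for Hspa5, Hsp90b1, Herpud1, Dnajb9 and Edem1. The windows of the other genes are not shown, among them those of Calr and Creld2, which hold an ERSE. The bases are in the direction of transcription, with ERSE and ERSE-II in capitals on whichever strand they were found.
Hspa5, chr2:34771840-34772089, plus strand: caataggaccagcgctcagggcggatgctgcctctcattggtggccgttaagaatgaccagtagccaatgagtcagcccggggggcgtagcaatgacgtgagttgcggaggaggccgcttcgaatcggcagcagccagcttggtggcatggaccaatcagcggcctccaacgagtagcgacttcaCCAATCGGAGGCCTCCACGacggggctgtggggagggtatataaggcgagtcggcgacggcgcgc
Hsp90b1, chr10:86705445-86705694, minus strand: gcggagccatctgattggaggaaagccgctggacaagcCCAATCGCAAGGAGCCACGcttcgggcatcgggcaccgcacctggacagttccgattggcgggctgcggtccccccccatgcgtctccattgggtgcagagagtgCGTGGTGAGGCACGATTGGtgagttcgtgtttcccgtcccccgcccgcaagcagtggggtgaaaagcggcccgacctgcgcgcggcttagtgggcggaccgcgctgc
Herpud1, chr8:94386179-94386428, plus strand: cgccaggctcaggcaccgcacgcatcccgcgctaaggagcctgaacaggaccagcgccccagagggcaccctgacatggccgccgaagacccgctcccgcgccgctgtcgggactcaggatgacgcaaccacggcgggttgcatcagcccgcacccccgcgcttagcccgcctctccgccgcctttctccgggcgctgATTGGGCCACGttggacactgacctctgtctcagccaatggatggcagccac
Dnajb9, chr12:44210069-44210318, minus strand: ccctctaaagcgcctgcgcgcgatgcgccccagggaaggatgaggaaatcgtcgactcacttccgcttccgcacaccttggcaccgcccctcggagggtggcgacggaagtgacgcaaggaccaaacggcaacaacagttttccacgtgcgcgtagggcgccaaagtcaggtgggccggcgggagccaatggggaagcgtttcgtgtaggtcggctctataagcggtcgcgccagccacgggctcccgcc
Edem1, chr6:108828391-108828640, plus strand: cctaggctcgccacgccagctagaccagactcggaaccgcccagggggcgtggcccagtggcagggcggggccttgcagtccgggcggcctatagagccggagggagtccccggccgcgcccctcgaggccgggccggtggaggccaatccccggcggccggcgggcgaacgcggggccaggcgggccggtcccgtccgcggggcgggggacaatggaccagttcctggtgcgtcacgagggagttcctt
In Hspa5 the ERSE lay at positions -65 to -47 from the RefSeq gene start, which need not be the GENCODE start given with each gene. In Hsp90b1 there were 2, at -212 to -194 and, on the opposite strand, at -107 to -89. The ERSE-II of Herpud1 lay at -52 to -42. In the windows of Dnajb9 and Edem1, neither ERSE nor ERSE-II was found in this spelling. A match is a stretch of letters and not a measured binding site.

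The libraries held between 13834682 and 16553616 counts with Trad-KAPA and between 10724672 and 14104236 with 3'-LEXO. The 10 genes took between 0.224% and 0.253% of the counts of the control libraries with Trad-KAPA and between 0.325% and 0.392% with 3'-LEXO. Iron-loaded mouse 1 stood apart from the other mice. Its share was 0.386% with Trad-KAPA and 0.688% with 3'-LEXO, against 0.240% and 0.244%, and 0.391% and 0.377%, in iron-loaded mice 2 and 3. Over all genes, its counts differed from those of the other iron-loaded mice by a chi-square per degree of freedom of between 49.5 and 59.8. Mice 2 and 3 differed from each other by 5.98 with Trad-KAPA and 5.97 with 3'-LEXO. Pairs of control mice differed by 18.5 to 19.9 with Trad-KAPA and by 25.8 to 35.9 with 3'-LEXO. Iron-loaded mice 2 and 3 were thus the most alike pair of a group in each kit. Fits without mouse 1 keep only this pair of iron-loaded mice. No 2 libraries of a group agreed within sampling noise. Among hepatocyte markers, the summed level in CPM (counts of a gene in each 1000000 counts of its library) was 131812 in mouse 1 and between 154398 and 170922 in the other mice in Trad-KAPA, and 55351 against 62518 to 78095 in 3'-LEXO. The comparisons of the 10 genes between diets are therefore given with and without this mouse, and for other genes named below the value without it is given where it ends a call. The hepatocyte marker sum was mostly Alb, at 93071 CPM in mouse 1 with Trad-KAPA and 34242 CPM with 3'-LEXO. Tat, Cyp2e1 and Hnf4a, 3 of the 10 markers, were instead highest in mouse 1 in both kits. The part of the lower hepatocyte marker sum in the results was not tested. In liver tissue, fewer cells of a type and less RNA per cell cannot be told apart.

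Levels of different genes were compared in Trad-KAPA as reads per kilobase of merged exons, scaled to library size (RPKM), in the 3 control mice. Calreticulin was the most abundant transcript of the 10 at 205 ± 29.2 RPKM (SD, n = 3). It was followed by Hsp90b1 at 136 ± 12.4, Hspa5 at 92.6 ± 15.8, Pdia4 at 79.6 ± 10.2 and Herpud1 at 77.0 ± 17.4. Edem1 at 41.9 ± 2.55 and Xbp1 at 37.0 ± 5.85 were lower. The lowest were Sdf2l1 at 12.8 ± 3.47, Dnajb9 at 12.5 ± 0.553 and Creld2 at 11.4 ± 2.90 RPKM. The control mice of neighbours in this order did not overlap between Calr and Hsp90b1, Hsp90b1 and Hspa5, Herpud1 and Edem1, and Xbp1 and Sdf2l1. The control ranges of the other neighbours overlapped. Within the same library, Hspa5 was above Pdia4 and Edem1 above Xbp1 in 3 of 3 controls, and the other overlapping pairs changed order between libraries. With the longest transcript as length, Herpud1 ranked above Pdia4, Xbp1 above Edem1 and Dnajb9 above Sdf2l1. In the iron-loaded livers Hspa5 had 166 ± 113, close to Hsp90b1 at 168 ± 41.5 and Calr at 184 ± 21.9 RPKM, and its large SD came with the value of mouse 1.

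For the question of how the iron-loaded diet affected these transcripts, the diets were compared within each kit on all genes that passed a filter on low counts. In all, 3 of the 10 were called with Trad-KAPA and 1 with 3'-LEXO at an adjusted p under 0.05 (edgeR's quasi-likelihood test with Benjamini-Hochberg adjustment over all genes tested). Dnajb9 rose in both kits, Herpud1 rose and Edem1 fell in Trad-KAPA. All 10 genes passed the filter in both kits. Of all 13151 genes tested in Trad-KAPA, 8.77% were called higher and 8.37% lower in iron-loaded livers, against 2 and 1 of the 10. Of the 13301 tested in 3'-LEXO, 3.17% were called higher and 2.92% lower, against 1 and 0 of the 10. The median log2 fold change of the 10 genes was 0.15 with Trad-KAPA and 0.24 with 3'-LEXO, and that of all genes tested was 0.02 and 0.01.

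**Figure D1:**
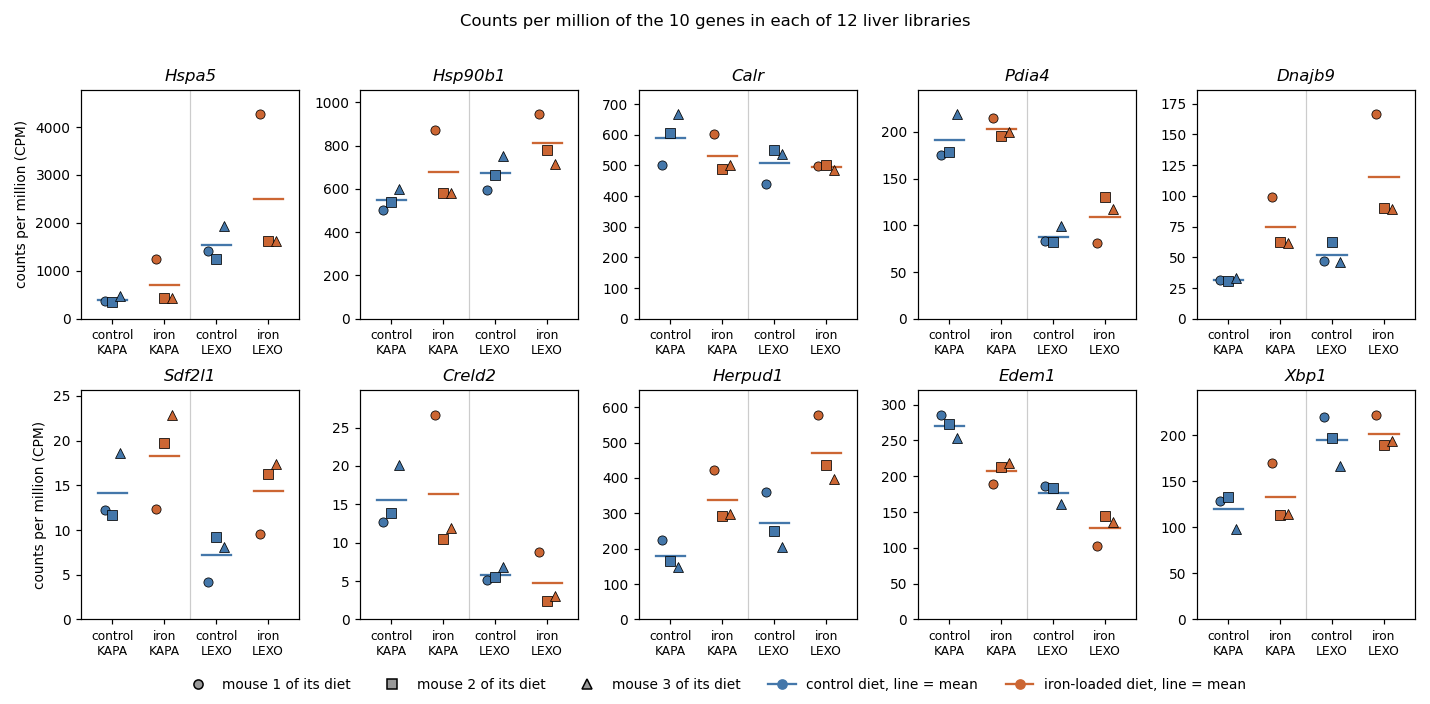
CPM of each gene in every library, with 1 panel per gene, the 2 diets of each kit side by side, 1 marker shape per mouse number and a line at the mean of 3 mice. Iron-loaded mouse 1 (circle) was far above all other libraries for Hspa5 in both kits, at 1252 and 4267 CPM, and in Dnajb9 and Herpud1 all 3 iron-loaded mice lay above all control mice.

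Dnajb9 (ENSMUSG00000014905, chr12:44205559-44210326, minus strand, GRCm38) encodes ERdj4, a J-domain co-chaperone of the ER lumen that binds BiP and restrains IRE1. In Trad-KAPA it had 31.5, 30.5 and 33.3 CPM in control mice 1, 2 and 3 and 98.7, 62.6 and 61.5 CPM in iron-loaded mice 1, 2 and 3. In 3'-LEXO the values were 47.2, 62.4 and 45.8 CPM in controls and 166, 89.9 and 89.2 CPM in iron-loaded mice. The diets did not overlap in either kit, and mice 2 and 3 alone lay above every control. The log2 fold change was 1.14 ± 0.17 (SE) with Trad-KAPA and 1.09 ± 0.23 with 3'-LEXO, with adjusted p of 0.00631 and 0.0284 (edgeR). Without iron-loaded mouse 1 it was 0.93 and 0.75, with adjusted p of 0.000594 and 0.0129 (edgeR). In Trad-KAPA the call remained without any of the 6 mice, whereas in 3'-LEXO the adjusted p was 0.108, 0.0670 and 0.113 without control mice 1, 2 and 3 (edgeR).

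Herpud1 (ENSMUSG00000031770, chr8:94386438-94395377, plus strand) encodes a membrane protein that assembles the ERAD complex around the ubiquitin ligase HRD1. Its CPM in Trad-KAPA were 225, 167 and 147 in controls and 422, 292 and 298 in iron-loaded mice. In 3'-LEXO they were 361, 249 and 204 in controls and 578, 436 and 396 in iron-loaded mice. All iron-loaded mice were above all controls in both kits, and control mouse 1 was the highest control in both. The diet effect on the log2 scale was 0.84 ± 0.18 in Trad-KAPA with an adjusted p of 0.0195, and 0.73 ± 0.22 in 3'-LEXO with an adjusted p of 0.0794 (edgeR), which missed the threshold, while DESeq2 gave 0.0208. Without iron-loaded mouse 1 it was 0.68 and 0.58 with adjusted p of 0.0146 and 0.131 (edgeR). In Trad-KAPA the adjusted p was 0.0752 without control mouse 2 and 0.0699 without control mouse 3 (edgeR).

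Edem1 (ENSMUSG00000030104, chr6:108828641-108859356, plus strand) encodes a mannosidase-like protein that hands misfolded glycoproteins to ERAD. It moved in the opposite direction to Herpud1. Its CPM in Trad-KAPA were 285, 273 and 253 in controls and 190, 213 and 219 in iron-loaded mice. In 3'-LEXO they were 186, 183 and 161 in controls and 102, 145 and 135 in iron-loaded mice. The diets did not overlap in either kit, and mouse 1 was the lowest library in both. edgeR gave a log2 fold change of -0.45 ± 0.12 in Trad-KAPA with an adjusted p of 0.0340, and -0.52 ± 0.17 in 3'-LEXO with an adjusted p of 0.0970. Without iron-loaded mouse 1 it was -0.36 and -0.37 with adjusted p of 0.0247 and 0.140 (edgeR). In Trad-KAPA the adjusted p was between 0.0755 and 0.100 when any other mouse was left out (edgeR), so that this call rests on the full set of controls and of iron-loaded mice 2 and 3.

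Hspa5 (ENSMUSG00000026864, chr2:34771970-34777547, plus strand) encodes BiP, the abundant HSP70 of the ER lumen that holds the sensors inactive until unfolded proteins draw it away. In Trad-KAPA it had 367, 340 and 467 CPM in controls and 1252, 423 and 432 CPM in iron-loaded mice. In 3'-LEXO it had 1415, 1252 and 1938 CPM in controls and 4267, 1622 and 1620 CPM in iron-loaded mice. Mouse 1 was 3.20 times the control mean with Trad-KAPA and 2.78 times with 3'-LEXO. In contrast, mice 2 and 3 were 1.08 and 1.10 times the control mean with Trad-KAPA and 1.06 times with 3'-LEXO, below control mouse 3. The log2 fold change was 0.74 ± 0.38 and 0.62 ± 0.36 with adjusted p of 0.206 and 0.315, and without mouse 1 it was 0.09 ± 0.15 and 0.03 ± 0.21 with adjusted p of 0.733 and 0.956 (edgeR). The difference between the diet means of Hspa5 thus came from 1 of the 3 iron-loaded mice, seen in both kits.

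The other abundant lumenal chaperones were not called in either kit. Hsp90b1 (ENSMUSG00000020048, chr10:86690209-86705509, minus strand) encodes GRP94, the HSP90 of the ER. Its CPM in Trad-KAPA were 503, 539 and 602 in controls and 871, 581 and 582 in iron-loaded mice, and in 3'-LEXO 595, 665 and 753 in controls and 945, 780 and 715 in iron-loaded mice. Mouse 1 was again the highest library in both kits, and mice 2 and 3 lay among or near the controls. The diet effect on the log2 scale was 0.23 ± 0.17 and 0.21 ± 0.18, with adjusted p of 0.384 and 0.487, and without mouse 1 it was 0.05 and 0.11 with adjusted p of 0.814 and 0.743 (edgeR). Part of the Hsp90b1 exons is shared with annotated genes, 415 bases with 1810014B01Rik on the opposite strand and 84 bases with Gm15344 on the same strand, and reads there may have been split or left uncounted.

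Calr (ENSMUSG00000003814, chr8:84841850-84846934, minus strand) encodes calreticulin, a calcium-binding lectin that retains glycoproteins until they are folded. Its CPM in Trad-KAPA were 501, 605 and 667 in controls and 603, 488 and 501 in iron-loaded mice, and in 3'-LEXO 438, 549 and 538 in controls and 499, 503 and 485 in iron-loaded mice. The diets overlapped in both kits, with log2 fold changes of -0.23 ± 0.15 and -0.10 ± 0.16 and adjusted p of 0.310 and 0.748, and without mouse 1 they were -0.30 and -0.08 with adjusted p of 0.174 and 0.811 (edgeR). Pdia4 (ENSMUSG00000025823, chr6:47796141-47813430, minus strand) encodes ERp72, a disulfide isomerase. Its CPM were 175, 178 and 219 in controls and 215, 196 and 200 in iron-loaded mice in Trad-KAPA, and 82.8, 81.7 and 99.4 in controls and 80.9, 130 and 118 in iron-loaded mice in 3'-LEXO. Mouse 1 was the lowest library for Pdia4 in 3'-LEXO and the highest iron-loaded library in Trad-KAPA. edgeR gave a log2 fold change of 0.02 ± 0.13 and 0.26 ± 0.21, with adjusted p of 0.941 and 0.468, and without mouse 1 it was 0.01 and 0.45 with adjusted p of 0.959 and 0.117 (edgeR).

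The folding factors with the fewest counts differed within the iron-loaded group in opposite ways. Sdf2l1 (ENSMUSG00000022769, chr16:17130138-17132383, minus strand) encodes a partner of ER J-domain proteins that keeps unfolded clients soluble. Its CPM in Trad-KAPA were 12.2, 11.7 and 18.6 in controls and 12.4, 19.7 and 22.9 in iron-loaded mice, and in 3'-LEXO 4.14, 9.23 and 8.08 in controls and 9.51, 16.2 and 17.4 in iron-loaded mice. Mouse 1 was the lowest of the iron-loaded mice in both kits. The log2 fold change was 0.31 ± 0.28 in Trad-KAPA with an adjusted p of 0.472, and 0.95 ± 0.32 in 3'-LEXO with an adjusted p of 0.104, and without mouse 1 it was 0.55 and 1.19 with adjusted p of 0.0927 and 0.0234 (edgeR). The 3'-LEXO values rest on between 58 and 191 counts per library.

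Creld2 (ENSMUSG00000023272, chr15:88819646-88826683, plus strand) encodes an ER protein with EGF-like domains that is induced by ER stress. Its CPM in Trad-KAPA were 12.7, 13.9 and 20.1 in controls and 26.6, 10.5 and 11.9 in iron-loaded mice, and in 3'-LEXO 5.14, 5.51 and 6.81 in controls and 8.74, 2.42 and 3.09 in iron-loaded mice. Here mouse 1 was the highest library of each kit and mice 2 and 3 were the lowest libraries of each kit. The diet effect on the log2 scale was -0.02 ± 0.34 and -0.35 ± 0.40 with adjusted p of 0.967 and 0.628, and without mouse 1 it was -0.52 and -1.12 with adjusted p of 0.124 and 0.0332 (edgeR). In 3'-LEXO mice 2 and 3 had 26 and 34 counts. Thus, in 3'-LEXO and without mouse 1, Sdf2l1 was called higher and Creld2 lower.

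Xbp1 (ENSMUSG00000020484, chr11:5520659-5525893, plus strand) had 129, 133 and 98.3 CPM in controls and 169, 114 and 114 CPM in iron-loaded mice in Trad-KAPA. In 3'-LEXO it had 220, 196 and 166 CPM in controls and 222, 189 and 194 CPM in iron-loaded mice. Mouse 1 was the highest library in both kits, though in 3'-LEXO control mouse 1 was close to it. edgeR gave a log2 fold change of 0.07 ± 0.16 and -0.00 ± 0.15, with adjusted p of 0.793 and 0.993, and without mouse 1 it was -0.11 and -0.06 with adjusted p of 0.552 and 0.864 (edgeR).

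**Figure D2:**
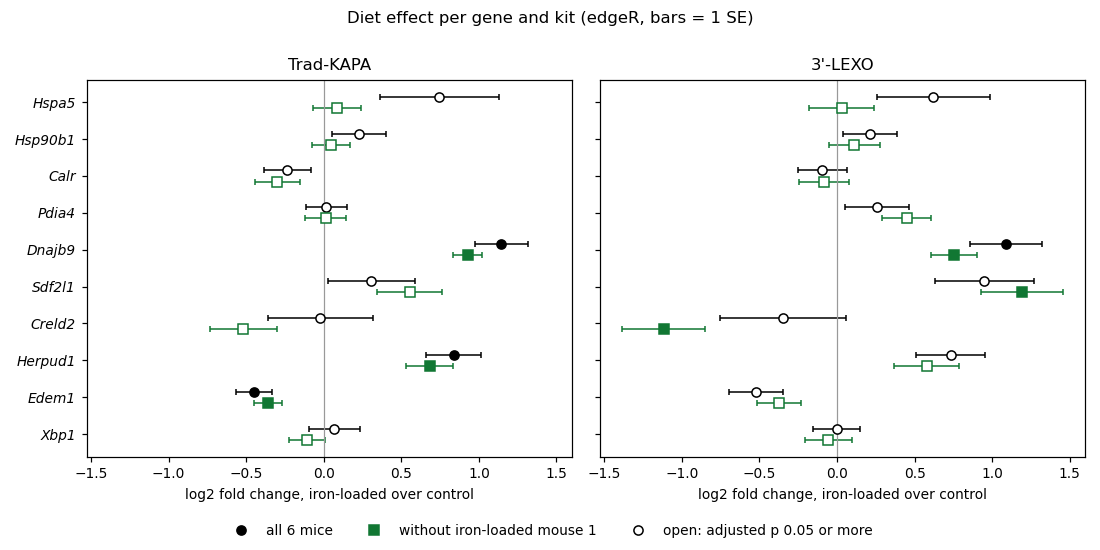
Log2 fold change of iron-loaded over control livers for the 10 genes in Trad-KAPA (left) and 3'-LEXO (right), with all 6 mice (circles) and without iron-loaded mouse 1 (squares), bars of 1 SE, and filled symbols for an adjusted p under 0.05. Hspa5 moved from 0.74 to 0.09 with Trad-KAPA and from 0.62 to 0.03 with 3'-LEXO, and Dnajb9 was called in all 4 fits.

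Across the set, the CPM of the diets did not overlap for 3 of the 10 genes in Trad-KAPA (2 higher and 1 lower in iron-loaded mice) and for 4 in 3'-LEXO (3 higher and 1 lower). Of all genes tested, 41.2% did not overlap with Trad-KAPA and 31.3% with 3'-LEXO, so that these counts are close to the background. When CPM were divided by the TMM factors, Sdf2l1 overlapped in 3'-LEXO and 3 genes were left there. The share of all genes without overlap was not computed for CPM scaled in this way. Iron-loaded mouse 1 was the highest library for 6 of the 10 genes in each kit, and these were the same 6 in both, Hspa5, Hsp90b1, Dnajb9, Creld2, Herpud1 and Xbp1. Of 12229 genes tested in both kits, 25.7% were highest in this mouse in both. With TMM-scaled CPM the values were 5 of the 10 genes, all but Xbp1, and 18.7%. Without mouse 1, 3 of the 10 genes were called in Trad-KAPA, again Dnajb9, Herpud1 and Edem1, where 20.8% of all genes were called. In 3'-LEXO, 3 were called as well, Dnajb9, Sdf2l1 and Creld2, where 6.37% of all genes were called.

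The genes whose pattern was most like that of Hspa5 were sought among 6718 genes with a mean of at least 10 CPM in both kits. The measure was the root mean square difference from Hspa5 in log2 CPM, centred within each kit, over the 12 libraries. The 5 closest that are not among the 10 were Manf at 0.0999, Selenos at 0.130, Slc35b1 at 0.165, Rbp4 at 0.170 and Hspa9 at 0.182. Manf encodes a secreted ER protein that binds BiP, Selenos an ERAD selenoprotein, Slc35b1 an ATP carrier of the ER membrane, Rbp4 the retinol carrier of plasma and Hspa9 the HSP70 of mitochondria. None of the 5 was called between the diets in either kit, with adjusted p between 0.148 and 0.458 (edgeR). Manf had 32.9, 30.9 and 50.4 CPM in controls and 122, 37.9 and 38.5 CPM in iron-loaded mice in Trad-KAPA. Hspa9 had 402, 401 and 421 CPM in controls and 1202, 457 and 464 CPM in iron-loaded mice. In both genes mouse 1 was high. Mice 2 and 3 lay within the range of the controls for Manf, and a little above every control for Hspa9, in both kits. Of the 8 other members of the set above this limit (Creld2 was below it in 3'-LEXO), Hsp90b1 came closest to Hspa5, at rank 427, and Sdf2l1 was farthest, at rank 6076.

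**Figure D3:**
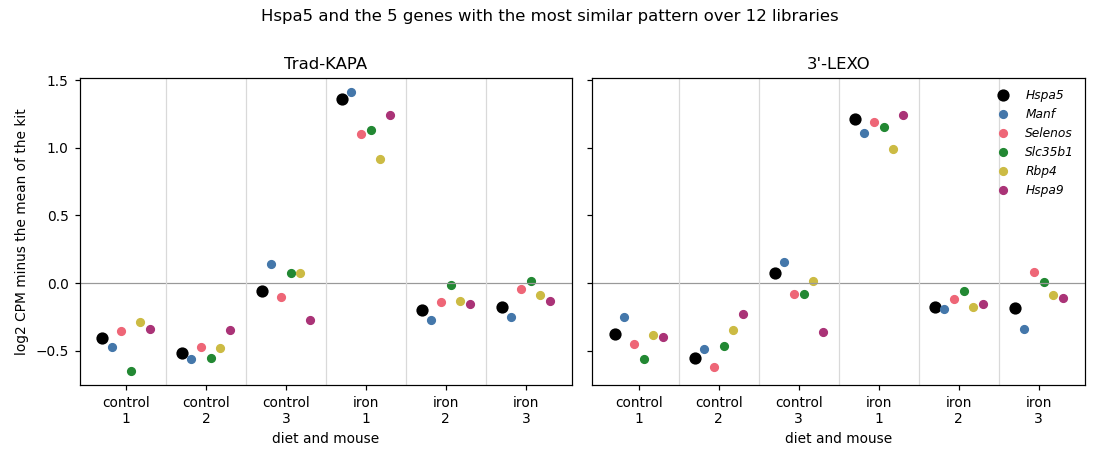
Log2 CPM minus the mean of the kit for Hspa5 (black) and the 5 genes closest to it, in the 3 control and 3 iron-loaded mice of each kit, with 1 point per library. All 6 genes peaked in iron-loaded mouse 1 in both kits, and control mouse 3 was the highest control for Hspa5, at 467 CPM with Trad-KAPA and 1938 CPM with 3'-LEXO.

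The rest of the ER folding and degradation machinery was described with 113 other genes in 7 lists. In Trad-KAPA, 110 were tested, of which 16 rose (14.5%) and 2 fell (1.82%), beside 8.77% and 8.37% of all genes. In 3'-LEXO, 111 were tested and 5 rose (4.50%) and 0 fell, beside 3.17% and 2.92% (edgeR, with 0 lower also without mouse 1). Without iron-loaded mouse 1, 23 rose (20.9%) and 5 fell (4.55%) with Trad-KAPA, beside 10.7% and 10.1% of all genes, and 8 rose (7.21%) with 3'-LEXO, beside 3.30%. The median log2 fold change of these genes was 0.25 with Trad-KAPA and 0.26 with 3'-LEXO, and 0.11 and 0.14 without mouse 1. Mouse 1 was the highest library in both kits for 62 of the 109 tested in both (56.9%, beside 25.7% of all genes), and for 51 (46.8%, beside 18.7%) with TMM-scaled CPM. Of the 18 calls in Trad-KAPA, 4 were kept whichever mouse was left out (Ddit4, Dnajc10, Txndc11 and Rnf5), and of the 5 in 3'-LEXO, 1 was kept (Ddit4). Each of the other calls of these ER genes was lost without at least 1 control mouse. Without iron-loaded mouse 1, the calls of Serpinh1 in Trad-KAPA and of Edem3 in 3'-LEXO were lost, and the other 17 and 4 were kept.

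Among the sensors and their transcription factors, 3 of 11 rose with Trad-KAPA and 0 of 10 were called with 3'-LEXO. Atf6 had 49.9, 55.6 and 50.5 CPM in controls and 217, 82.2 and 82.2 CPM in iron-loaded mice in Trad-KAPA, all iron-loaded mice being higher. Its log2 fold change was 1.20 ± 0.33 in Trad-KAPA with an adjusted p of 0.0414, and 1.08 ± 0.31 in 3'-LEXO with 0.0680, and without mouse 1 it was 0.63 and 0.52 with adjusted p of 0.00234 and 0.0399 (edgeR). Eif2ak3, the gene of PERK, rose by a log2 fold change of 0.61 ± 0.12 and Mbtps2, the site-2 protease that cuts ATF6, by 0.62 ± 0.13 in Trad-KAPA, with adjusted p of 0.0165 and 0.0198 (edgeR). In 3'-LEXO their adjusted p was 0.122 and 0.281.

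Among the ER lists, that of the PERK branch had the most calls. Of its 9 genes, 4 were higher with Trad-KAPA and 3 with 3'-LEXO, and 0 were lower. The list is named for the branch, and the activity of PERK was not measured. Atf4 had 57.8, 63.8 and 57.2 CPM in controls and 204, 85.6 and 93.1 CPM in iron-loaded mice in Trad-KAPA. Trib3, a pseudokinase induced by ATF4, had 36.7, 15.1 and 18.4 CPM in controls and 521, 68.1 and 66.5 CPM in iron-loaded mice. Ddit4, an inhibitor of mTORC1, had 3.62, 1.88 and 3.98 CPM in controls and 30.1, 11.5 and 11.1 CPM in iron-loaded mice. In all 3 genes every iron-loaded mouse was above every control, and mouse 1 was the highest. The log2 fold changes in Trad-KAPA and 3'-LEXO were 1.01 and 1.24 for Atf4, 3.12 and 2.94 for Trib3, and 2.38 and 2.22 for Ddit4, with adjusted p between 0.00908 and 0.0425 (edgeR). Without mouse 1 they were 0.55 and 0.76, 1.48 and 1.60, and 1.80 and 1.84, with adjusted p between 0.00307 and 0.0130 (edgeR). Without any 1 of the control mice, Atf4 and Trib3 missed the threshold in both kits, at adjusted p of up to 0.125 and 0.132 (edgeR). Cebpb was the fourth gene called in Trad-KAPA. Ddit3, the gene of CHOP, was not called, with 30.99 CPM in mouse 1 and between 2.67 and 4.47 CPM in the other Trad-KAPA libraries.

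Among 18 other ER chaperones tested, 2 rose and 1 fell with Trad-KAPA and 0 were called with 3'-LEXO (0 also without mouse 1). Dnajc10, a J-domain reductase, rose by 0.65 ± 0.10 and Ppib, the ER cyclophilin, by 0.45 ± 0.11 on the log2 scale, whereas Serpinh1, the collagen chaperone, changed by -0.90 ± 0.26, with adjusted p of 0.00787, 0.0293 and 0.0486 (edgeR). Without mouse 1 the adjusted p of Serpinh1 was 0.0724 (edgeR). Of 16 disulfide isomerases and oxidases, 3 rose with Trad-KAPA and 1 with 3'-LEXO. These were Txndc11, at log2 fold changes of 0.82 and 0.62 and called in both kits, and Ero1l, the oxidase of disulfide isomerases, and P4hb, the main isomerase, at 0.81 and 0.47 in Trad-KAPA. Of 24 ERAD genes, 2 rose and 1 fell with Trad-KAPA and 1 rose with 3'-LEXO. Edem3, a mannosidase of the family of Edem1, rose in both kits, by 0.57 ± 0.16 and 0.74 ± 0.19 with adjusted p of 0.0448 and 0.0463 (edgeR), while Edem1 was lower. Without mouse 1 the adjusted p of Edem3 was 0.0381 and 0.0585 (edgeR). Erlec1, a lectin, rose by 0.39 and Rnf5, a ubiquitin ligase, changed by -0.67 in Trad-KAPA. In 3'-LEXO their log2 fold changes were 0.43 and -0.19, and neither was called, with adjusted p of 0.102 and 0.624 (edgeR).

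In the translocon list 1 of 17 genes rose in Trad-KAPA (Srpr, the signal recognition particle receptor, at a log2 fold change of 0.59), and in the N-glycosylation list 1 of 15 (Ostc, at 0.36). In 3'-LEXO 0 of 19 and 0 of 15 were called (0 and 0 also without mouse 1). Chaperones outside the ER were looked at for comparison. Of the cytosolic heat shock chaperones, 0 of 15 rose and 1 fell in Trad-KAPA, and 0 of 17 were called in 3'-LEXO. The one that fell was the stress-inducible Hspa1b at -1.55 ± 0.40. Its level was low, at 1.75, 3.62 and 1.95 CPM in controls and 1.07, 1.02 and 0.503 CPM in iron-loaded mice in Trad-KAPA. Of 8 mitochondrial chaperones, 0 rose and 1 fell in Trad-KAPA, which was Trap1 at -0.40 ± 0.10, and 0 were called in 3'-LEXO. The calls of Hspa1b and Trap1 were each lost without at least 1 control mouse. Without iron-loaded mouse 1, the cytosolic Hsph1, with log2 fold changes of -0.60 and -0.93, and the mitochondrial Clpx, at -1.07 and -0.93, were called lower in both kits as well, with adjusted p of 0.0481 and 0.0458, and 0.00407 and 0.00700 (edgeR). The summed CPM of the mitochondrial list was nevertheless 2503 in mouse 1 and between 1111 and 1274 in the other Trad-KAPA libraries.

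**Figure D4:**
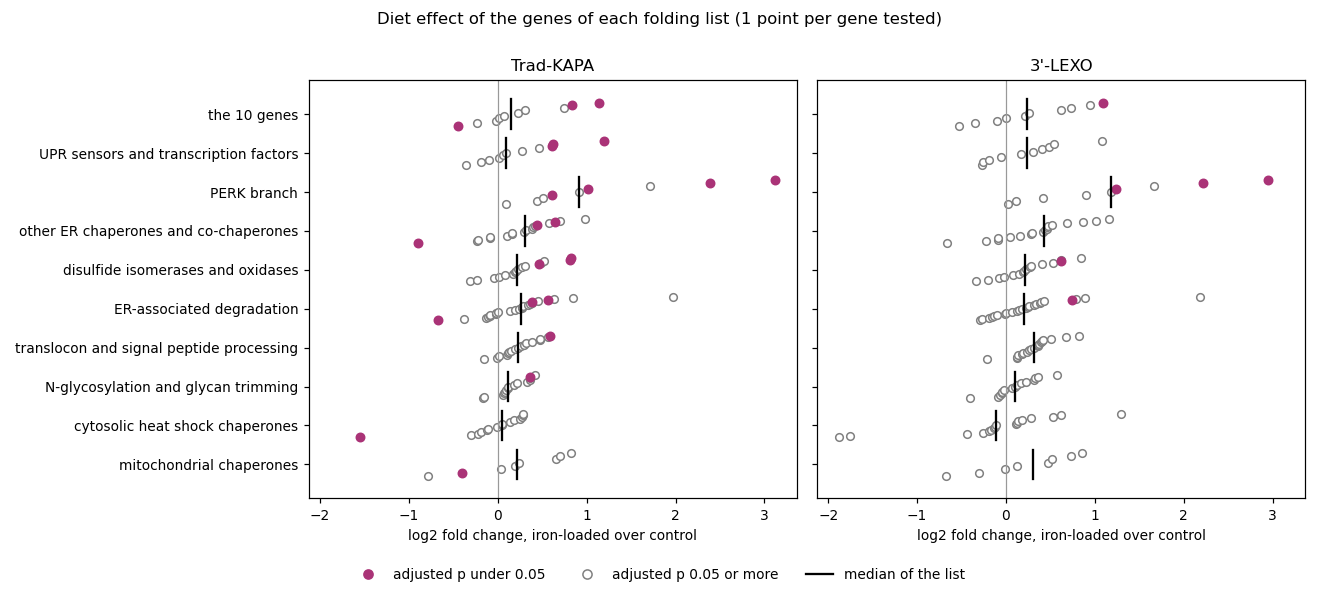
Log2 fold change of iron-loaded over control livers for each gene tested, in the 10 genes and the 9 other folding lists, with 1 point per gene, filled for an adjusted p under 0.05, and a line at the median of each list. The PERK branch had the highest medians, 0.92 with Trad-KAPA and 1.18 with 3'-LEXO.

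Markers of liver cell types were compared between the diets as well. No marker of any list was at 0 in all libraries of a kit. Of 10 hepatocyte markers, 0 were called in Trad-KAPA and 1, Tat, was higher in 3'-LEXO, a call that was lost without any 1 of the 6 mice. The summed plasma cell and B cell markers were between 271 and 290 CPM in controls and between 179 and 193 CPM in iron-loaded mice in Trad-KAPA, and 349 to 512 and 290 to 362 CPM in 3'-LEXO. Most of this sum was Sdc1, which other cells also express, and without it the sum was 41.6 to 63.3 CPM in controls and 27.6 to 33.5 CPM in iron-loaded mice in Trad-KAPA, and 33.0 to 44.1 and 20.2 to 28.2 CPM in 3'-LEXO. Of these markers, 2 of 11 fell with Trad-KAPA and 1 of 9 with 3'-LEXO, with Ighm at -1.64 and -1.69. Ighm was a large part of the sum without Sdc1. Its control and iron-loaded means were 33.2 and 11.1 CPM in Trad-KAPA and 22.2 and 7.12 CPM in 3'-LEXO. Derl3, Igha and Mzb1 had instead positive log2 fold changes in both kits, none of them called with all 6 mice. Of 8 Kupffer cell markers, 2 rose with Trad-KAPA and 1 with 3'-LEXO, with Marco at 3.10 and 2.82, and the summed level was 347 to 552 CPM in controls and 620 to 677 CPM in iron-loaded mice in Trad-KAPA. In 3'-LEXO the diets overlapped in this sum, at 1017 to 1364 and 1341 to 1552 CPM. Neutrophil and monocyte markers rose in 4 of 6 and 3 of 7, with S100a9 at 2.48 and 1.79. Their summed level was 30.1 to 53.0 CPM in controls and 75.7 to 88.4 CPM in iron-loaded mice in Trad-KAPA. Most of this sum was Lyz2, with means of 35.3 and 64.8 CPM. S100a9 was low there, with means of 0.561 and 3.35 CPM. Of 8 sinusoidal endothelial markers, 2 rose in Trad-KAPA, and 1 rose and 2 fell in 3'-LEXO. Lyve1 was called higher by both kits, though in 3'-LEXO its adjusted p was 0.0619 without mouse 1 (edgeR). It ran against its list in 3'-LEXO, where every other marker had a negative log2 fold change and the median was -0.28. Stab1 rose by 0.44 with Trad-KAPA but had -0.20, not called, with 3'-LEXO. The summed 3'-LEXO level was 391 to 473 CPM in controls and 330 to 358 CPM in iron-loaded mice. With Trad-KAPA the median was 0.13 and the sums overlapped, at 375 to 487 and 450 to 540 CPM. Of 8 stellate cell markers, 1 (Des) fell with Trad-KAPA and 0 were called with 3'-LEXO. Of 3 cholangiocyte markers tested, 1 (Spp1) rose in both kits. The others, Epcam at 0.52 and 0.15 and Sox9 at -0.57 and -0.66, were not called. Ighm and Marco kept their calls in both kits whichever mouse was left out. The part of these cell types in the levels of the 10 genes was not tested.

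The difference of the diet effect between the kits was tested as an interaction over all 12 libraries, and none of the 10 genes was called. Of all 14384 genes tested, 0% were called, and 402 had an unadjusted p under 0.05, among which were 0 of the 10 (edgeR, with DESeq2 also calling 0). With the mouse as a block, 5 genes were called, none of the 10. The largest difference was that of Sdf2l1, whose log2 fold change was higher in 3'-LEXO by 0.64 ± 0.47 (unadjusted p of 0.194, edgeR). For Hspa5 the difference was -0.12 ± 0.59 and for Dnajb9 -0.05 ± 0.31. In the fit that gave these errors the libraries of 1 mouse were not paired, so that they include the spread between mice. Within each mouse, the log2 ratio of Hspa5 in 3'-LEXO over Trad-KAPA was 1.95, 1.88 and 2.05 in control mice. It was 1.77, 1.94 and 1.91 in iron-loaded mice 1, 2 and 3. The kits were not shown to give the same diet effect.

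The levels themselves depended on the kit. In 3'-LEXO a CPM counts transcript ends and in Trad-KAPA it also grows with transcript length, so that the ratio of the kits is a property of the measurement. At an adjusted p under 0.05, 9 of the 10 genes differed between the kits, 5 higher and 4 lower in 3'-LEXO, beside 77.0% of all 14384 genes tested (edgeR). Hspa5 had the highest ratio, with 1.92 ± 0.09 (SD, n = 6 mice) as log2 of 3'-LEXO over Trad-KAPA, and was higher in 6 of 6 mice. Xbp1 at 0.66 ± 0.16, Dnajb9 at 0.65 ± 0.21, Herpud1 at 0.53 ± 0.10 and Hsp90b1 at 0.29 ± 0.10 were also higher in 6 of 6 mice. The Hsp90b1 call was lost without any of 5 mice, all but iron-loaded mouse 1, at adjusted p between 0.0729 and 0.170 (edgeR). In that fit the libraries of 1 mouse were not paired, and with the mouse as a block the adjusted p of Hsp90b1 was 7.2e-05 and all 10 genes were called, beside 11883 of all 14384 (edgeR).

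Creld2 at -1.64 ± 0.32, Pdia4 at -1.02 ± 0.29, Sdf2l1 at -0.69 ± 0.55 and Edem1 at -0.66 ± 0.12 were lower in 3'-LEXO in 6 of 6 mice. Calr at -0.15 ± 0.13 was lower in 5 of 6 and was not called, with an adjusted p of 0.178, or 0.0230 with the mouse as a block (edgeR). For Sdf2l1 the ratio ranged from -1.56 to -0.28, and without control mouse 3 its adjusted p was 0.0597, against 0.000308 for all mice with the mouse as a block (edgeR). Sdf2l1 and Creld2 had the shortest merged exons of the 10, with 1108 and 1366 bases, and Edem1 had the longest, with 6453 bases, and all 3 were lower in 3'-LEXO.

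**Figure D5:**
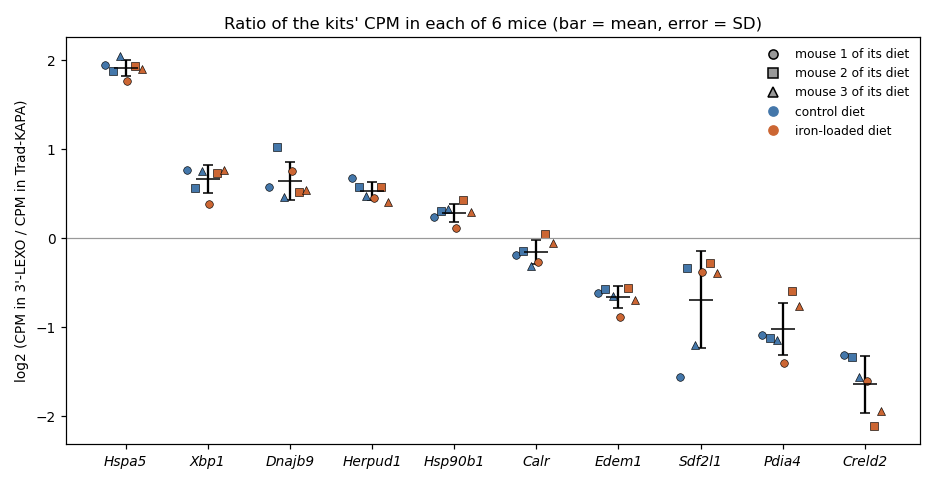
Log2 of CPM in 3'-LEXO over CPM in Trad-KAPA in each of the 6 mice, ordered by the mean, with the mean and SD in black. The ratio was above 0 in 6 of 6 mice for 5 genes, from Hspa5 at 1.92 to Hsp90b1 at 0.29, and below 0 in 6 of 6 for 4 genes.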

How the data were processed

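Total RNA of the large liver lobe of 6 mice was sequenced in 12 libraries with single-end reads. Alignment by the authors used STAR 2.5.3a and GRCm38 (mm10), and they deposited raw counts of reads per gene, by Ensembl identifier, neither normalized nor pooled. The counting program and annotation release are not given in the sources used here. Whole reads of PCR-amplified libraries were counted without molecular identifiers.

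Names and merged exon lengths came from GENCODE M21, which held 26949 of 27022 identifiers. Diets were compared within each kit with edgeR 4.0.16 (R 4.3.3, limma 3.58.1), using filterByExpr, TMM and the quasi-likelihood test, with Benjamini-Hochberg adjustment over all genes and calls at 0.05. The interaction of diet and kit and the difference between the kits were fitted over all 12 libraries. DESeq2 1.42.0, its size factors, no filter, counts drawn to 10000000 per library, replicate blocks and leaving out each mouse were the alternatives, and TMM-scaled CPM for the overlap of the diets and for the highest library, and the plasma cell sum without Sdc1, were added after seeing the data. The fits were tested on simulated counts. Tables were made with Python 3.11.15, pandas 2.3.3, numpy 2.4.6 and scipy 1.17.1, and plots with matplotlib 3.10.9.

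Replicate numbers pair libraries of the same mouse across kits: deviations from the group mean correlated at r of 0.404 to 0.745 in the 6 pairs, over 10326 genes with a mean of at least 50 counts. Across diets they do not pair mice (r of -0.153 to 0.0738).

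The genes, lists and tests were chosen with earlier results of these data known. Lists held 210 names, of which 209 had a row. Named genes were the 10, up to 3 called genes per other list with the largest mean absolute change over both kits, and the 5 closest to Hspa5. Other genes named, such as Cebpb, Ddit3, Hsph1, Clpx, Hyou1, Derl3 and Ern1, were chosen after their values were seen.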

Additional observations from a re-analysis of the deposited data

How the results depend on the processing

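With no expression filter, 4 of the 10 genes were called in 3'-LEXO (Dnajb9, Herpud1, Sdf2l1 and Edem1), and 4 in Trad-KAPA, where Hspa5 was added at an adjusted p of 0.0395 (edgeR). In that setting the other ER genes called numbered 28 with Trad-KAPA and 17 with 3'-LEXO, against 18 and 5. Of all genes, 2866 were called with Trad-KAPA and 2040 with 3'-LEXO, against 2255 and 811, so that calls rose outside these lists as well. The interaction called 7 genes, against 0. DESeq2 called 2 of the 10, 12 other ER genes and 1313 of all genes in 3'-LEXO.

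With the replicate block across diets, whose numbers do not pair the mice, 2 other ER genes and 436 of all genes were called in 3'-LEXO. In that fit Edem1 in Trad-KAPA (adjusted p of 0.0628) and Dnajb9 in 3'-LEXO (0.0648) missed the threshold and Sdf2l1 in 3'-LEXO passed it (0.0350, edgeR), and Xbp1 in 3'-LEXO turned to 0.0017. With the mouse as a replicate block, the interaction called 5 genes.

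Leaving out 1 mouse gave between 1 and 3 of the 10 genes in Trad-KAPA (lowest without control mouse 2 or 3) and between 0 and 3 in 3'-LEXO (0 without any 1 of the control mice, 3 without iron-loaded mouse 1). It gave 4 to 28 and 1 to 8 other ER genes, and 841 to 2803 and 199 to 871 of all genes. The sign turned for Pdia4 in Trad-KAPA (-0.057 to 0.16), Creld2 in Trad-KAPA (-0.52 to 0.24, and 0.041 at 10000000 counts per library) and Xbp1 (-0.11 to 0.16 in Trad-KAPA and -0.084 to 0.084 in 3'-LEXO), none of which was called in Trad-KAPA. DESeq2's size factors in edgeR turned no sign and lost no call of the 10 genes. Of all 330 values of the 10 genes under the alternatives, 291 kept their direction and their side of the threshold. With 3 mice per diet, the differences seen for Hsp90b1 and Calr did not pass the threshold. Creld2 and Sdf2l1 had the fewest counts of the 10 genes. With the longest transcript as length, 3 of the 10 RPKM values moved by more than 1 SD.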

Other observations

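Some genes of the same machinery, chosen after their values were seen, had patterns like those of the less abundant members. Hyou1, an HSP110-type partner of BiP, had 239 CPM in iron-loaded mouse 1, 71.4 and 69.7 CPM in mice 2 and 3, and 91.5, 90.6 and 134 CPM in controls in Trad-KAPA. Its log2 fold change was 0.16 with Trad-KAPA and -0.23 with 3'-LEXO, and -0.62 and -0.75 without mouse 1, with adjusted p of 0.820, 0.768, 0.0482 and 0.201 in that order (edgeR). As for Creld2 in Trad-KAPA, mouse 1 was the highest library and mice 2 and 3 were the lowest. In 3'-LEXO the lowest Hyou1 library was control mouse 2, at 36.2 CPM. Derl3, a derlin of the ERAD complex, had 0.857 CPM in mouse 1, 4.99 and 4.82 CPM in mice 2 and 3, and 0.0604, 0.469 and 2.17 CPM in controls in Trad-KAPA. Its log2 fold change was 1.97 with Trad-KAPA and 2.18 with 3'-LEXO, not called at adjusted p of 0.163 and 0.0656, and without mouse 1 it was 2.46 and 2.64, with adjusted p of 0.0385 and 0.00338 (edgeR). In both kits mouse 1 was the lowest iron-loaded mouse, as in Sdf2l1. Ern1, the gene of IRE1, had 264 CPM in mouse 1 and between 98.2 and 106 CPM in the other 5 Trad-KAPA libraries, with log2 fold changes of 0.46 and 0.49 and adjusted p of 0.361 and 0.338, and of -0.13 and -0.04 without mouse 1 (edgeR).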
